A study of Mus musculus with 100 samples.

Results

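The 8 genes described here encode plasminogen activators, their receptor, serine protease inhibitors (serpins) and proteins that start, check or finish blood coagulation. They were picked as a named set (Plau, Plat, Plaur, Serpine2, Serpinf1, F3, Thbd and F13a1), with earlier results of these data known, and all 8 were among the 17310 genes of the count table. RNA was sequenced from whole mouse knee joints of 3 inbred strains, MRL/MpJ, C57BL/6 and STR/ort, all labelled as 10 weeks of age. Uninjured mice gave 4 libraries per strain, termed 0-day. In the other mice the anterior cruciate ligament of the right knee was ruptured by a single tibial compression, and the injured joint and the uninjured contralateral joint were collected 1-day, 1-week and 2-weeks later. These 18 groups held 5 libraries each, except the contralateral joints of MRL/MpJ and STR/ort at 1-week with 4. No genotype was altered and no sham group is used here, so the contralateral joint of the injured mouse and the 0-day joint are the controls. The labels place 0-day, 1-day and 1-week in 1 experimental batch of 70 libraries and 2-weeks in another of 30, so time and batch cannot be told apart for 2-weeks, and tests over time stop at 1-week.

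Plasminogen is a circulating zymogen that is cut to plasmin by urokinase (uPA, the product of Plau) or by tissue-type plasminogen activator (tPA, Plat). Plasmin dissolves fibrin and also degrades matrix proteins and activates matrix metalloproteinases. The receptor uPAR, encoded by Plaur, holds urokinase at the cell surface. Serpine2 encodes protease nexin-1, which inhibits thrombin, urokinase and tPA, and Serpinf1 encodes pigment epithelium-derived factor, a serpin without protease inhibitor activity that is known as an anti-angiogenic and bone matrix protein. Coagulation starts when tissue factor (F3) on cells outside the vessel binds factor VII, thrombomodulin (Thbd) on endothelium turns thrombin towards activation of protein C, and the A chain of factor XIII (F13a1), which macrophages also make, is the transglutaminase that crosslinks fibrin. In a torn ligament with joint bleeding, fibrin is laid down and then cleared by this system.

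The genes lie on 8 chromosomes (mouse build GRCm38.p6, RefSeq), so none neighbours another. Plau is at chr14:20836662-20843388, Plat at chr8:22757722-22782848 and Plaur at chr7:24460937-24475970, all on the plus strand. The serpins are at chr1:79794317-79858665 (Serpine2) and chr11:75410029-75422623 (Serpinf1), both on the minus strand. F3 is at chr3:121723537-121735052 on the plus strand, and Thbd at chr2:148404471-148408188 and F13a1 at chr13:36867178-37050244 are on the minus strand. Exons of F13a1 overlap those of 1 other gene, Gm30489 on the opposite strand, and counting by strand is not stated in the sources used here, so reads of that pair cannot be told apart. The exons of the other 7 genes overlap those of no other gene in GENCODE M21.

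Relative to exon length, the serpins and factor XIII were far above the activators. In C57BL/6 at 0-day the level was 211 CPM per kb for Serpinf1 (CPM, read counts scaled to library size; per kb, divided by exon length), 160 for Serpine2 and 76.1 for F13a1. The corresponding level was 14.8 CPM per kb for Plaur, 12.4 for Plau, 10.8 for Thbd, 5.89 for Plat and 3.87 for F3. In MRL/MpJ and STR/ort, Serpine2 ranked with Serpinf1 at the top (133 and 94.2 CPM per kb in MRL/MpJ, 142 and 141 in STR/ort) and Plat and F3 were again the lowest. F3 had 27 to 140 counts per library and Plat 39 to 762, and log2 fold changes of these members carry the widest errors.

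Promoter sequences are shown for 4 genes whose level in STR/ort exceeded that of C57BL/6 and of MRL/MpJ in both joints at 1-week (described further on), to let their upstream sequence be compared. Each is the 250 bases before the annotated start, 5′ to 3′ on the gene's strand, from a table of RefSeq promoters (GRCm38.p6), in which 5 of the 8 genes were matched. Promoters of Plau, Plat and Thbd were not analysed here. Capitals mark matches on either strand to the AP-1 motif TGANTCA, found in 6.75% of the 32851 promoters in that table, and to the GC box GGGCGG, found in 32.7%; no match to one overlapped a match to the other.
Serpine2 (chr1:79858666-79858915, minus strand): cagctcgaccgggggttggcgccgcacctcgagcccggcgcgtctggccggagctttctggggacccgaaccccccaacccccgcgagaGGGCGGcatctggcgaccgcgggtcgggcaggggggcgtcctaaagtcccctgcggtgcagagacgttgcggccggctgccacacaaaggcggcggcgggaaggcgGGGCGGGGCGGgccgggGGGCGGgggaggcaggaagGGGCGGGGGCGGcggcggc
F3 (chr3:121723287-121723536, plus strand): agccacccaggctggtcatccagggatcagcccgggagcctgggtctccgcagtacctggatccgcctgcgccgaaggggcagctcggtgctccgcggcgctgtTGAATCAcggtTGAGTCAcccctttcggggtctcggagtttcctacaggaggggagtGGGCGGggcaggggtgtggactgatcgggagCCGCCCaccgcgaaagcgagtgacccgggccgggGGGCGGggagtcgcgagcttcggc
Serpinf1 (chr11:75422624-75422873, minus strand): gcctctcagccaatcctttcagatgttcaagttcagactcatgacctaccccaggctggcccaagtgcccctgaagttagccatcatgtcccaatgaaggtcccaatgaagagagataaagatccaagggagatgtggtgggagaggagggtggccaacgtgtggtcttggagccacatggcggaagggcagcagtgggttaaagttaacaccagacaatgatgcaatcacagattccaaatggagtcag
F13a1 (chr13:37050245-37050494, minus strand): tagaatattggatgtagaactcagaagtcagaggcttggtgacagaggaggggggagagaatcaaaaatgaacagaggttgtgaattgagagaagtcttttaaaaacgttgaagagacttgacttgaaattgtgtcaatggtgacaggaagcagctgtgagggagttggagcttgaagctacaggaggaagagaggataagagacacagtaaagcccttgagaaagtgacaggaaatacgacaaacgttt
The 4 sequences differed in make-up. Serpine2 held 6 GC boxes and no AP-1 match, with a GC content of 78.8%. F3 held 2 AP-1 matches, 146 to 140 and 135 to 129 bases before the start, with 3 GC boxes and a GC content of 70%. Serpinf1 (51.6% GC) and the outer of the 2 F13a1 entries (42.8% GC) held neither motif, against a median GC content of 52.4% over all promoters. A match describes letters only, and no match says nothing about binding.

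The libraries held 6182016 to 20986027 counts, with a median of 10582592, and of 190 pairs of libraries within groups 0 were identical. Intact joints hold muscle, bone, marrow, cartilage and synovium, and markers of these tissues were detected, with no marker in the table at 0 in a whole group and 1 of 6 chondrocyte markers not in the table. Their amounts differed between groups. The summed level of 6 skeletal muscle markers was 72782 to 80586 CPM in STR/ort at 0-day and 26037 to 51901 CPM in its contralateral joints at 1-week, and it was 13421 to 29528 CPM in its injured joints at 1-week. The summed level of 6 fibroblast markers went the other way, from 2222 to 2982 CPM at 0-day to 3076 to 5416 and 5646 to 6525 CPM. In bulk tissue, fewer cells of a type and less RNA per cell cannot be told apart, and the part of these shifts in the results below was not tested. Some results are also given from a fit with the muscle markers as covariate. That fit cannot separate muscle from group where the muscle sums of the groups do not overlap.

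**Figure D1:**
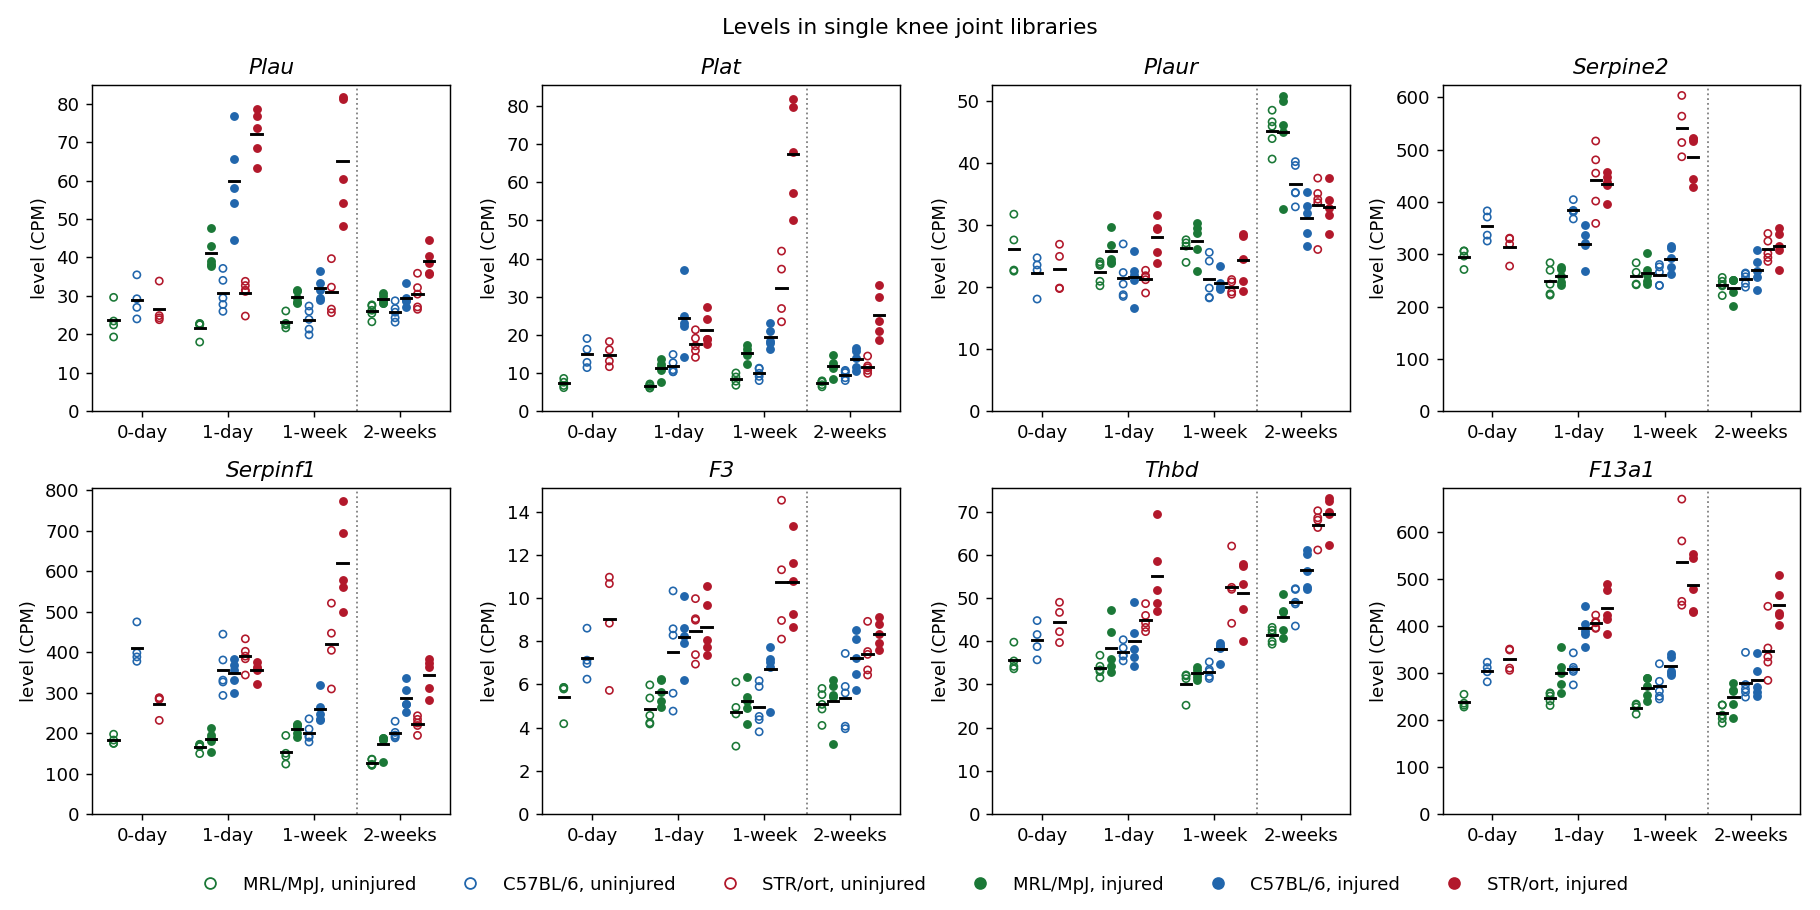
Level in CPM (y axis, linear from 0) of each of the 8 genes in every library, by time after injury (x axis), with open circles for uninjured joints (0-day and contralateral), filled circles for injured joints and black bars for group means. The 2-weeks libraries, right of the dotted line, are another batch; Plat reached 50 to 81.7 CPM in injured STR/ort joints at 1-week and stayed at or below 42 CPM in every other group.

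The genes of both plasminogen activators rose after injury. Plau was higher in the injured joint of all 3 strains at 1-day, and at 1-week it was called only in STR/ort. Plat was higher at 1-day in MRL/MpJ and C57BL/6, at 1-week in all 3 strains and at 2-weeks in MRL/MpJ and STR/ort. No member was called lower in an injured joint. A gene was called when its fold change was above 1.5 and its adjusted p below 0.05 (edgeR quasi-likelihood test, Benjamini-Hochberg over all genes).

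At 1-day, 2 of 8 members were called in MRL/MpJ, where 2.02% of all genes were, 2 in C57BL/6 (5.6%) and 1 in STR/ort (4.31%). The counts at 1-week were 1 in MRL/MpJ (3.13% of all genes), 1 in C57BL/6 (5.82%) and 2 in STR/ort (9.21%). At 2-weeks they were 1 in MRL/MpJ (1.16%), 0 in C57BL/6 (2.95%) and 2 in STR/ort (4.66%). These 12 calls were made on 3 genes, Plau (4), Plat (7) and Serpinf1 (1).

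**Figure D2:**
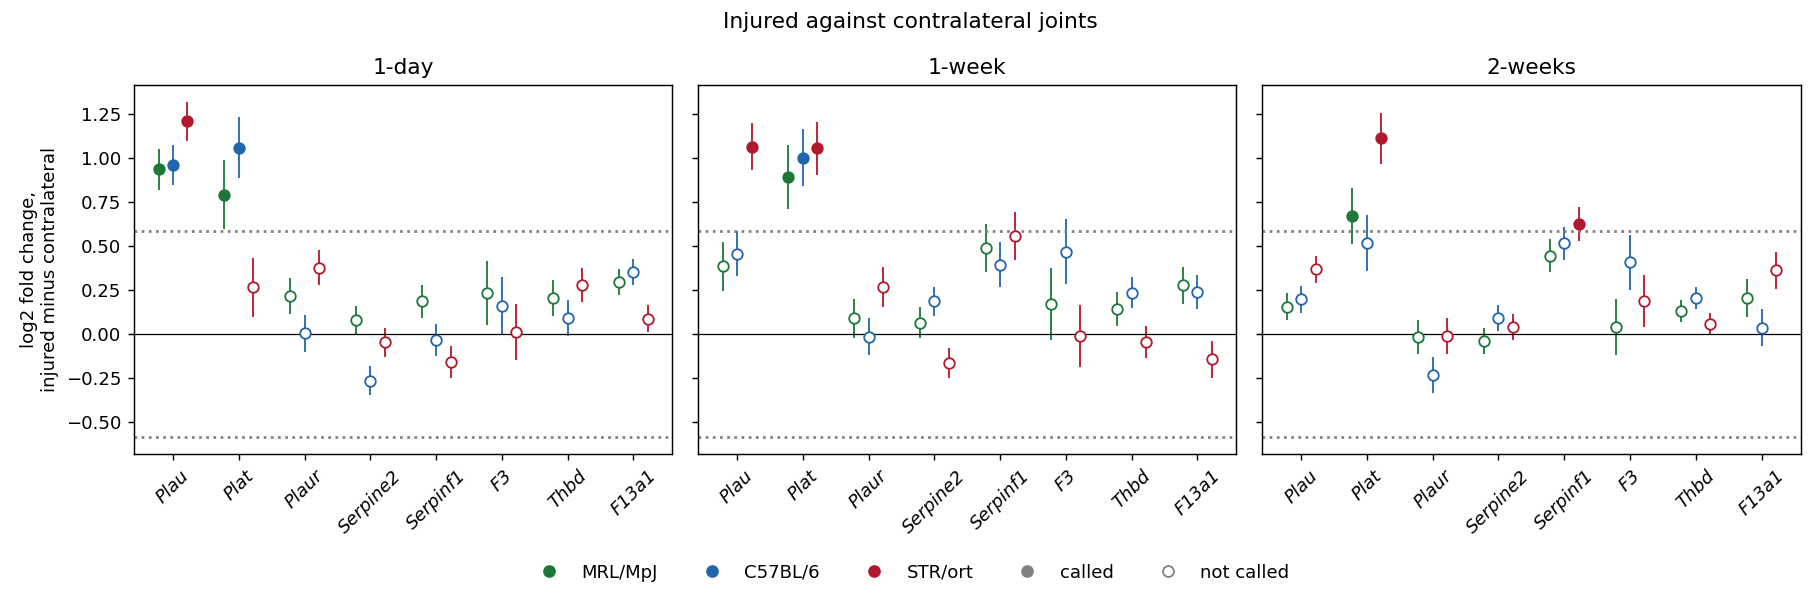
Log2 fold change of injured against contralateral joints (y axis) for the 8 genes in the 3 strains at each time point, with bars of 1 standard error; filled points were called, open points were not, and dotted lines mark a fold of 1.5. Plau is called in all 3 strains at 1-day and Plat in all 3 at 1-week, while no point of Serpine2, Plaur, F3, Thbd or F13a1 is called.

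Plau, the urokinase gene, was at 18.0, 22.5, 22.6, 22.7 and 22.8 CPM in the contralateral joints of MRL/MpJ at 1-day and at 37.7, 38.4, 39.1, 42.9 and 47.7 CPM in the injured ones. In C57BL/6 the contralateral joints were at 26.0, 27.8, 29.5, 34 and 37.2 CPM and the injured joints at 44.7, 54.1, 58.1, 65.6 and 76.8 CPM. In STR/ort they were at 24.8, 31.1, 31.5, 32.7 and 33.8 CPM and at 63.2, 68.5, 73.8, 76.8 and 78.6 CPM. Thus in each strain every injured joint was above every contralateral joint. The log2 fold changes were 0.94 ± 0.12 (SE; 1.92-fold, adjusted p = 2.24e-06) in MRL/MpJ, 0.96 ± 0.11 (1.95-fold, adjusted p = 1.76e-07) in C57BL/6 and 1.21 ± 0.11 (2.31-fold, adjusted p = 4.86e-09) in STR/ort. The summed level of 7 macrophage markers, contralateral against injured, was 342 to 421 and 411 to 484 CPM in MRL/MpJ, 575 to 642 and 763 to 904 CPM in C57BL/6 and 532 to 636 and 554 to 606 CPM in STR/ort, without overlap in C57BL/6 only, and its part in the result was not tested.

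At 1-week, Plau in injured joints was at 29.8 ± 1.63 CPM in MRL/MpJ and 32.0 ± 3.12 CPM in C57BL/6 (SD, n = 5 each), with contralateral means of 23.3 and 23.7 CPM. The groups did not overlap, but the log2 fold changes were 0.39 ± 0.14 (adjusted p = 0.135) and 0.46 ± 0.13 (adjusted p = 0.017, fold under 1.5), and neither was called. In STR/ort the injured joints were at 48.3, 54.2, 60.5, 81.3 and 81.7 CPM and the contralateral joints at 25.6, 26.6, 32.3 and 39.7 CPM. They did not overlap, and Plau rose by a log2 fold change of 1.07 ± 0.14 (2.09-fold, adjusted p = 9.64e-07). Nor did the endothelial sums (277 to 337 against 390 to 491 CPM) or the fibroblast sums (3076 to 5416 against 5646 to 6525 CPM) of these contralateral and injured joints. The neutrophil sums, at 6382 to 8653 against 3954 to 5520 CPM, were lower in injured joints without overlap. The part of these markers in the result was not tested. At 2-weeks the log2 fold change was 0.16 ± 0.08 in MRL/MpJ, 0.20 ± 0.08 in C57BL/6 and 0.37 ± 0.08 in STR/ort, with no call.

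Whether these injury differences of Plau themselves differed between strains was tested as an interaction. At 1-week the difference in STR/ort exceeded that in MRL/MpJ by 0.68 ± 0.19 on the log2 scale (adjusted p = 0.0813) and that in C57BL/6 by 0.61 ± 0.19 (adjusted p = 0.138), and neither was called. With the replicate number as a block both were called, at 0.72 (adjusted p = 0.00677) and 0.66 (adjusted p = 0.00889), although at 1-week the labels tie no library to an animal. Between 1-day and 1-week, Plau in injured joints fell by 0.91 on the log2 scale in C57BL/6 (SE 0.13, adjusted p = 1.45e-07), 1 of 8 members called where 4.47% of genes were. The same change was -0.44 ± 0.13 in MRL/MpJ (adjusted p = 0.0205, fold under 1.5) and -0.16 ± 0.12 in STR/ort (adjusted p = 0.331). In injured C57BL/6 joints the macrophage marker sum went from 763 to 904 CPM at 1-day to 492 to 580 CPM at 1-week. The neutrophil sum went from 4626 to 5915 CPM to 6069 to 7068 CPM and the erythroid sum from 1700 to 2740 CPM to 2978 to 3896 CPM. None of these overlapped, and their part in the change was not tested.

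Plat, the tPA gene, was lowest in MRL/MpJ and reached its peak in STR/ort at 1-week. At 1-day the contralateral joints of C57BL/6 were at 10.3, 10.4, 10.8, 12.7 and 14.9 CPM and the injured joints at 14.2, 22.2, 23.1, 25 and 37.1 CPM. The lowest injured joint fell within the contralateral range, and the log2 fold change was 1.06 ± 0.17 (2.08-fold, adjusted p = 3.68e-05). In MRL/MpJ the contralateral joints were at 6.05 to 7.12 CPM and the injured joints at 7.69, 10.7, 11.7, 12.4 and 13.7 CPM, without overlap. The log2 fold change there was 0.79 ± 0.20 (1.73-fold, adjusted p = 0.0134), which without replicate 2 of the injured joints was 0.74 (adjusted p = 0.0541). In STR/ort it was 0.27 ± 0.17 (adjusted p = 0.374), with 14.1 to 21.3 CPM in contralateral and 17.6 to 27.3 CPM in injured joints. The difference between STR/ort and C57BL/6 in this response was -0.79 ± 0.24 (adjusted p = 0.0555), which was not called.

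At 1-week Plat was higher in the injured joints of all 3 strains. MRL/MpJ contralateral joints were at 6.78, 7.86, 8.97 and 10.0 CPM and injured joints at 12.5, 14.6, 15.2, 16.3 and 17.5 CPM. C57BL/6 contralateral joints were at 8.02, 9.12, 9.93, 11.2 and 11.3 CPM and injured joints at 16.4, 18.0, 18.5, 21 and 23.1 CPM. STR/ort contralateral joints were at 23.4, 26.9, 37.2 and 42.0 CPM and injured joints at 50, 57.1, 67.9, 79.8 and 81.7 CPM. In no strain did the groups overlap, and every contralateral joint of STR/ort was above every injured joint of the other strains. The log2 fold changes were 0.89 ± 0.18 (adjusted p = 0.00154), 1.00 ± 0.16 (adjusted p = 3.9e-05) and 1.06 ± 0.15 (adjusted p = 6.04e-06), and the largest difference between strains in this response was 0.16 ± 0.24 (STR/ort minus MRL/MpJ, adjusted p = 0.838). The summed fibroblast markers moved the same way, from a mean of 1234 to 2425 CPM in MRL/MpJ, 1381 to 2588 CPM in C57BL/6 and 4768 to 5870 CPM in STR/ort. Of the 6 markers, 6, 6 and 3 were called higher in the injured joints, and their part in the result was not tested.

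At 2-weeks Plat was still higher in injured joints of STR/ort (18.7, 20.9, 23.6, 29.9 and 33 CPM) than in contralateral ones (9.92, 10.7, 11.4, 11.9 and 14.4 CPM), by a log2 fold change of 1.11 ± 0.15 (2.16-fold, adjusted p = 1.03e-06). In MRL/MpJ it rose from 6.38 to 7.95 CPM to 8.34 to 14.8 CPM, by 0.67 ± 0.16 (adjusted p = 0.016), which without replicate 2 of the contralateral joints was 0.63 (adjusted p = 0.0607). In C57BL/6 the log2 fold change was 0.52 ± 0.16 (adjusted p = 0.0356) and its fold was under 1.5. The mean fibroblast marker sums were higher in injured joints here too (1538 to 2780 CPM in STR/ort, 927 to 1521 CPM in MRL/MpJ and 962 to 1833 CPM in C57BL/6, contralateral to injured). In STR/ort the endothelial sums (344 to 365 against 405 to 439 CPM) and chondrocyte sums (2111 to 3163 against 3675 to 5392 CPM) were also higher in injured joints without overlap, and the part of these markers in the result was not tested. Over time, Plat in injured STR/ort joints rose from 21.4 ± 4.18 CPM at 1-day to 67.3 ± 13.9 CPM at 1-week (SD, n = 5 each), a log2 fold change of 1.65 ± 0.16 (3.13-fold, adjusted p = 2.06e-13). Between the same groups the fibroblast marker sum went from 2391 to 3970 CPM to 5646 to 6525 CPM and the endothelial sum from 310 to 349 CPM to 390 to 491 CPM, without overlap. The neutrophil sum fell from 6163 to 7726 CPM to 3954 to 5520 CPM and the platelet sum from 675 to 814 CPM to 480 to 666 CPM, also without overlap. The part of these markers in the change was not tested, here or for Serpinf1. In that comparison 2 of 8 members were called (Plat and Serpinf1) where 13.9% of genes were, and in MRL/MpJ 0 of 8 where 3.11% were. Plat changed by 0.47 ± 0.18 in MRL/MpJ (adjusted p = 0.115) and -0.34 ± 0.16 in C57BL/6 (adjusted p = 0.155).

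Plaur, which encodes the urokinase receptor, was the one member called in 0 of the 48 comparisons. Its injury log2 fold changes ran from -0.23 ± 0.10 in C57BL/6 at 2-weeks (adjusted p = 0.171) to 0.38 ± 0.10 in STR/ort at 1-day (adjusted p = 0.0126, fold under 1.5). In that last group the injured joints were at 23.9, 25.7, 29.4, 29.6 and 31.6 CPM and the contralateral joints at 19.0, 21.2, 21.6, 21.8 and 22.7 CPM, without overlap. All groups of the first batch had means between 20 and 28 CPM, and the 2-weeks groups between 31.1 and 45.1 CPM. At 2-weeks the contralateral log2 difference of STR/ort minus MRL/MpJ was -0.44 ± 0.10 (adjusted p = 0.000855, fold under 1.5). The contralateral difference of STR/ort minus MRL/MpJ at 1-week was -0.37 ± 0.12 (adjusted p = 0.0127), and with RUVg normalization it became -0.92 with 1 factor and -0.91 with 2, and -0.73 with the muscle markers as covariate, all called.

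Serpine2 did not pass the thresholds after injury, and Serpinf1 passed them at 2-weeks in STR/ort. Serpine2, a thrombin and plasminogen activator inhibitor, was called in 0 of 9 injury comparisons, with log2 fold changes from -0.26 ± 0.08 (C57BL/6 at 1-day, adjusted p = 0.0241) to 0.19 ± 0.08 (C57BL/6 at 1-week, adjusted p = 0.162). In C57BL/6 at 1-day the injured joints were at 268, 317, 322, 337 and 356 CPM and the contralateral joints at 367, 381, 383, 384 and 404 CPM, which did not overlap but differed by less than 1.5-fold. Serpinf1 was not called at 1-day in any strain, where its log2 fold changes were 0.19, -0.03 and -0.16 in MRL/MpJ, C57BL/6 and STR/ort. At 1-week they were 0.49 ± 0.14 (adjusted p = 0.0294), 0.40 ± 0.13 (adjusted p = 0.0399) and 0.56 ± 0.14 (adjusted p = 0.00328), all with a fold under 1.5. In STR/ort the injured joints were at 499, 560, 579, 695 and 773 CPM and the contralateral joints at 309, 404, 447 and 521 CPM, so the highest contralateral joint lay above the lowest injured one. With the replicate number as a block, this difference was 0.59 (adjusted p = 0.000125) and was called, although at 1-week the labels tie no library to an animal.

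At 2-weeks Serpinf1 rose in STR/ort, from 194, 219, 225, 234 and 243 CPM in contralateral joints to 282, 311, 364, 373 and 384 CPM in injured ones. The groups did not overlap, and the log2 fold change was 0.63 ± 0.09 (1.54-fold, adjusted p = 9.77e-06). The fibroblast marker sums did not overlap either, at 1294 to 1855 and 2238 to 3098 CPM, nor did the endothelial and chondrocyte sums given above for Plat, and their part in the result was not tested. It stood just past the fold threshold, and was 0.58 without replicate 2 of the injured joints and 0.58 without replicate 1 of the contralateral ones. The log2 fold changes in MRL/MpJ (0.45 ± 0.09, adjusted p = 0.00557) and C57BL/6 (0.52 ± 0.09, adjusted p = 0.000294) passed the p threshold with a fold under 1.5. Over time, Serpinf1 in injured STR/ort joints rose from 355 ± 19.9 CPM at 1-day to 621 ± 111 CPM at 1-week, by a log2 fold change of 0.80 ± 0.11 (adjusted p = 1.46e-08). In C57BL/6 the same comparison gave -0.42 ± 0.11 (adjusted p = 0.00449, fold under 1.5).

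None of the 3 coagulation genes was called in an injury comparison. F3, the tissue factor gene, had log2 fold changes from -0.01 ± 0.18 (STR/ort at 1-week) to 0.47 ± 0.18 (C57BL/6 at 1-week, adjusted p = 0.103). Its standard errors in these comparisons were 0.15 to 0.20. Thbd, the thrombomodulin gene, lay between -0.04 ± 0.09 (STR/ort at 1-week) and 0.28 ± 0.10 (STR/ort at 1-day, adjusted p = 0.0684), and its injured STR/ort joints at 1-day were at 47.0, 48.9, 51.8, 58.6 and 69.4 CPM against 42.2 to 48.7 CPM. F13a1, the factor XIII A gene, had its largest log2 fold changes in STR/ort at 2-weeks (0.36 ± 0.11, adjusted p = 0.0185) and in C57BL/6 at 1-day (0.36 ± 0.08, adjusted p = 0.000941). In the latter the injured joints were at 355, 382, 388, 404 and 443 CPM and the contralateral joints at 275, 303, 307, 312 and 343 CPM, without overlap and with a fold under 1.5. The summed level of 7 macrophage markers was 763 to 904 CPM in those injured joints and 575 to 642 CPM in the contralateral ones, and its part in the result was not tested.

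Of the 72 interactions of strain and injury over the 8 members, 0 were called, where 0.557% of all genes over these comparisons were. With the replicate block 3 were called, both of Plau at 1-week given above and Plat for STR/ort minus C57BL/6 at 1-day (-0.76, adjusted p = 0.038). With DESeq2, 2 were called, Plat for STR/ort minus C57BL/6 at 1-day (-0.78, adjusted p = 0.0377) and Plau for STR/ort minus MRL/MpJ at 1-week (0.69, adjusted p = 0.0382).

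The strains differed in most of these genes. Before injury MRL/MpJ had the least Plat, C57BL/6 the most Serpinf1, and STR/ort more F3 than MRL/MpJ. At 1-week after injury STR/ort exceeded C57BL/6 and MRL/MpJ alike in 6 of the 8 members in contralateral joints and in 6 in injured joints. Of all genes, 13.1% and 13.7% were higher in STR/ort than in C57BL/6 and in MRL/MpJ in contralateral joints, and 13.3% and 15% in injured joints. The share of all genes higher than in both strains is not given here. The 28 strain differences called in injured joints (17.1% of all genes over the same comparisons were called) and the 26 in contralateral joints (15.2%) over the 3 time points were all towards more RNA in STR/ort, or in C57BL/6 against MRL/MpJ.

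At 0-day Plat was at 6.16, 6.72, 7.58 and 8.59 CPM in MRL/MpJ, at 11.4, 12.8, 16.2 and 19.0 CPM in C57BL/6 and at 11.7, 13.2, 16.1 and 18.2 CPM in STR/ort. MRL/MpJ did not overlap with either strain, and the other two did. The log2 difference was 1.03 ± 0.18 for STR/ort minus MRL/MpJ (adjusted p = 0.000246) and 1.06 ± 0.18 for C57BL/6 minus MRL/MpJ (adjusted p = 0.000155). Serpinf1 was at 175, 175, 183 and 197 CPM in MRL/MpJ, 232, 284, 286 and 287 CPM in STR/ort and 377, 388, 398 and 475 CPM in C57BL/6, so the 3 strains did not overlap. It was called for C57BL/6 minus MRL/MpJ (1.21 ± 0.09, adjusted p = 1.26e-08) and for STR/ort minus C57BL/6 (-0.63 ± 0.09, adjusted p = 3.41e-05), and for STR/ort minus MRL/MpJ it was just under the fold threshold (0.58 ± 0.09, adjusted p = 6.78e-05). F3 was at 4.19 to 5.86 CPM in MRL/MpJ and 5.73 to 11 CPM in STR/ort, overlapping by 1 STR/ort joint, with a log2 difference of 0.74 ± 0.20 (adjusted p = 0.007). Of 8 members, 2 were called for STR/ort minus MRL/MpJ, 1 for STR/ort minus C57BL/6 and 2 for C57BL/6 minus MRL/MpJ, where 14.8%, 13.8% and 15.9% of all genes were, so these shares are near those of the whole table.

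Several of these 0-day differences were not called in other fits, and the cause was not tested. The muscle marker sum at 0-day was 31508 to 51430 CPM in C57BL/6, 70554 to 85131 CPM in MRL/MpJ and 72782 to 80586 CPM in STR/ort, so C57BL/6 did not overlap with either strain and the other two overlapped. At 0-day the muscle sum and the difference of C57BL/6 from the other strains therefore cannot be told apart. The fibroblast marker sum was 1158 to 1361 CPM in MRL/MpJ, 2262 to 3212 CPM in C57BL/6 and 2222 to 2982 CPM in STR/ort, lowest in the strain with the least Plat and Serpinf1. In the same order of strains, osteoblast sums were 1514 to 2068, 2280 to 3194 and 1986 to 2760 CPM. Macrophage sums were 379 to 425, 549 to 593 and 351 to 419 CPM, and erythroid sums 3825 to 4689, 2473 to 2935 and 1733 to 1902 CPM. The part of these markers in the results was not tested. With the muscle markers as covariate, 3 of the 5 calls remained, and the Serpinf1 difference of STR/ort minus C57BL/6 was -0.24 (adjusted p = 0.684) and the Plat difference of C57BL/6 minus MRL/MpJ 0.64 (adjusted p = 0.497). With 2 RUVg factors, estimated from 25 housekeeping genes, 1 call remained, that of Plat between STR/ort and MRL/MpJ. The other 4 log2 differences were then 0.42 (F3), 0.30 (Plat), and 0.58 and -0.15 (Serpinf1 against MRL/MpJ and against C57BL/6).

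**Figure D3:**
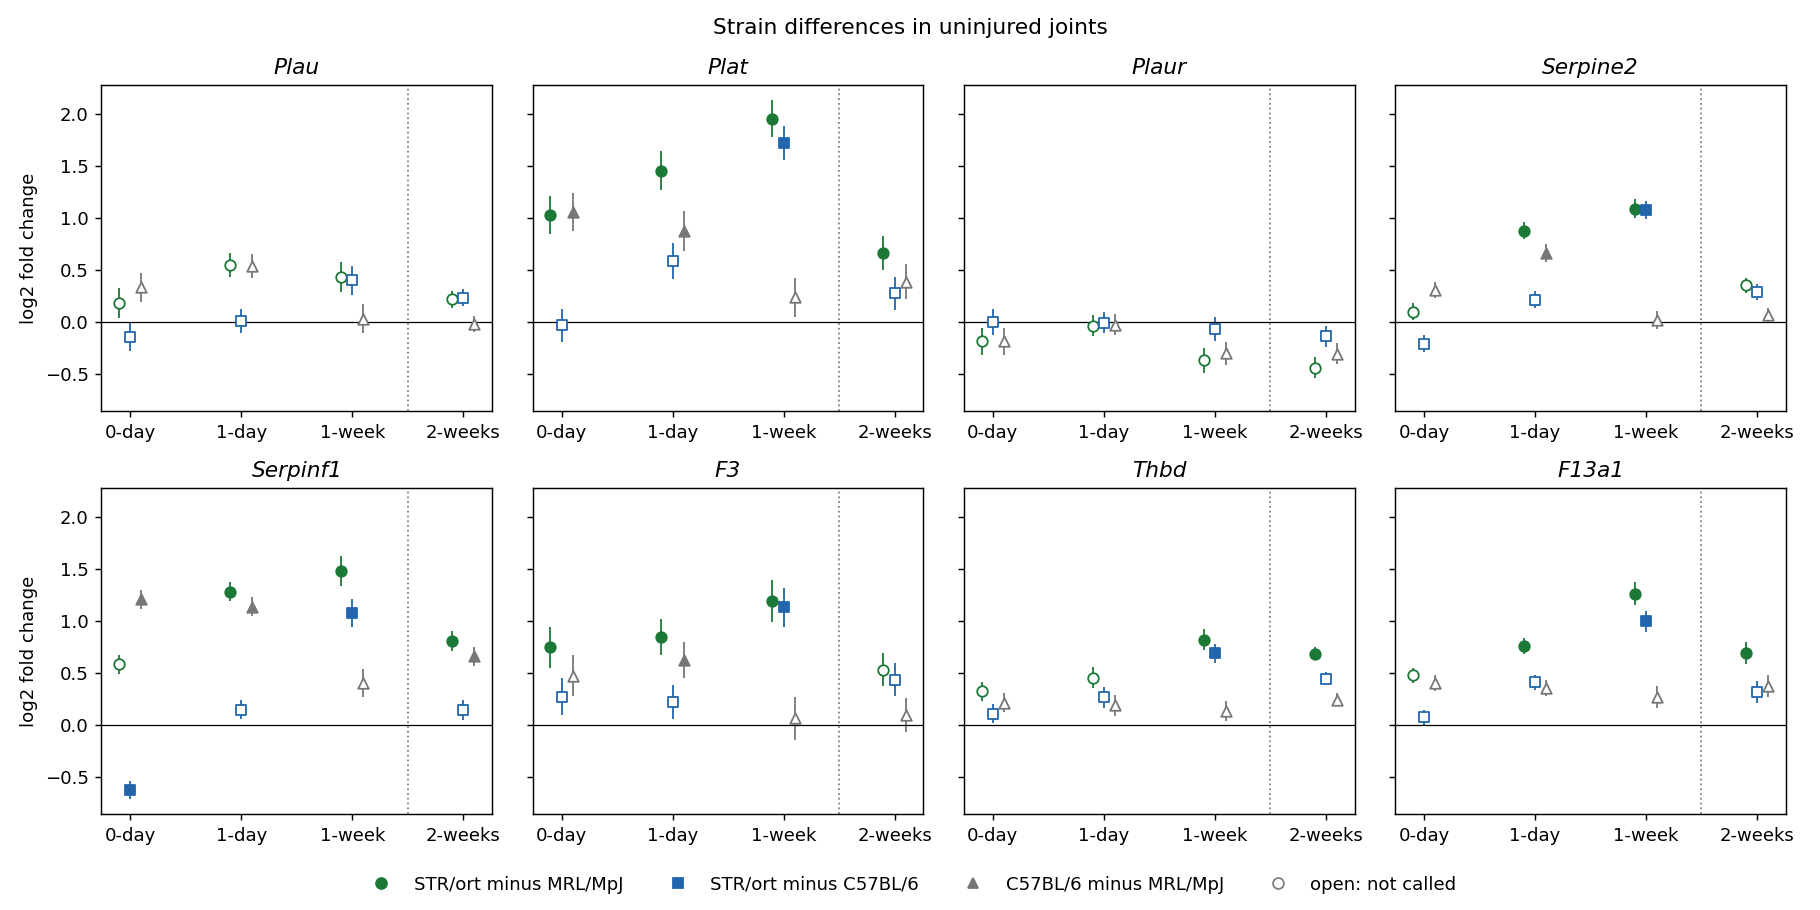
Log2 fold change between strains in uninjured joints (y axis) at 0-day and in contralateral joints afterwards (x axis) for each gene, with bars of 1 standard error. Filled symbols were called; both comparisons of STR/ort are largest at 1-week in 6 genes, all but Plau and Plaur.

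STR/ort differed from the other strains in the most members at 1-week. In contralateral joints 6 of 8 members passed the test with more in STR/ort than in MRL/MpJ, where 24.4% of all genes were called (13.7% as higher), and 6 higher than in C57BL/6, where 22.2% were (13.1% as higher). Both sets were Serpine2, Plat, F3, Thbd, F13a1 and Serpinf1, and C57BL/6 and MRL/MpJ differed in 0 of 8 (8.53% of all genes). In injured joints 7 members were higher in STR/ort than in MRL/MpJ (29.5% of all genes, 15% as higher), and 6 higher than in C57BL/6 (25.1% of all genes, 13.3% as higher), while C57BL/6 and MRL/MpJ differed in 0 (9.47%). The shares of members called exceeded those of the whole table, in genes chosen with earlier results of these data known.

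Serpine2 was at 486, 513, 564 and 603 CPM in STR/ort contralateral joints at 1-week, at 240, 241, 266, 276 and 280 CPM in C57BL/6 ones and at 241, 243, 265 and 284 CPM in MRL/MpJ ones. STR/ort lay far above both, which overlapped with each other. The log2 difference of STR/ort was 1.09 ± 0.09 over MRL/MpJ (adjusted p = 1.31e-10) and 1.07 ± 0.09 over C57BL/6 (adjusted p = 4.28e-11). In injured joints it was 0.86 ± 0.08 and 0.72 ± 0.08, and with the muscle markers as covariate 0.58 and 0.52, under the fold threshold with adjusted p of 0.000206 and 9.62e-05. The injured difference over MRL/MpJ was also under it with 2 RUVg factors (0.53, adjusted p = 0.0476), and that over C57BL/6 with 1 and with 2 factors (0.53 and 0.48).

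F13a1 was at 444, 452, 581 and 669 CPM in STR/ort contralateral joints at 1-week, above the 245 to 320 CPM of C57BL/6 and the 213 to 234 CPM of MRL/MpJ. The log2 differences of STR/ort were 1.26 ± 0.11 over MRL/MpJ (adjusted p = 2.72e-10) and 1.00 ± 0.10 over C57BL/6 (adjusted p = 6.34e-09). Of injured joints, those of STR/ort were at 431 to 554 CPM, and the log2 difference over C57BL/6 was 0.62 ± 0.10, which was 0.57 without replicate 2 and 0.56 without replicate 3 of the STR/ort injured joints. It was also under the fold threshold with 1 and 2 RUVg factors (0.58 and 0.57) and with the muscle markers as covariate (0.58). Thbd showed smaller differences in contralateral joints at 1-week, 0.82 ± 0.10 over MRL/MpJ (adjusted p = 9.72e-08) and 0.69 ± 0.09 over C57BL/6 (adjusted p = 6.12e-07). Its STR/ort joints were at 44.1, 52, 52.5 and 62 CPM and all 9 joints of the other strains at or below 35.2 CPM. Of 6 endothelial markers 0 were called higher in STR/ort in either comparison, with summed levels of 277 to 337 CPM in STR/ort, 313 to 364 CPM in C57BL/6 and 312 to 331 CPM in MRL/MpJ. In injured joints, where Thbd was called against MRL/MpJ, these sums were 390 to 491 CPM in STR/ort, 333 to 372 CPM in C57BL/6 and 294 to 372 CPM in MRL/MpJ, with 2 of 6 markers called higher than in MRL/MpJ, and their part in that result was not tested. That Thbd difference, 0.63 ± 0.09, was not called with 1 RUVg factor (0.53) or without replicate 4 of the STR/ort injured joints (0.58). Of 7 macrophage markers, which bear on F13a1, 3 passed the test with more in STR/ort than in MRL/MpJ and 1 with more than in C57BL/6, and their part in the result was not tested.

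F3 was at 8.10, 8.96, 11.3 and 14.5 CPM in STR/ort contralateral joints at 1-week. No C57BL/6 joint (3.81 to 6.17 CPM) or MRL/MpJ joint (3.15 to 6.11 CPM) reached these levels. The log2 differences were 1.13 ± 0.19 over C57BL/6 (adjusted p = 1.41e-05) and 1.19 ± 0.20 over MRL/MpJ (adjusted p = 1.78e-05). In injured joints they were 0.65 ± 0.17 (adjusted p = 0.00197) and 1.01 ± 0.18 (adjusted p = 1.6e-05), the first of which was 0.56 without replicate 1 of the STR/ort injured joints. With 2 RUVg factors the differences from MRL/MpJ were 1.03 in contralateral (adjusted p = 0.134) and 0.80 in injured joints (adjusted p = 0.212), which were not called, as was that from C57BL/6 in injured joints (0.66, adjusted p = 0.123).

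The contralateral Plat levels given above differed at 1-week by 1.96 ± 0.18 over MRL/MpJ (adjusted p = 7.7e-10) and 1.72 ± 0.17 over C57BL/6 (adjusted p = 1.52e-09), the widest of any member. In injured joints the differences were 2.12 ± 0.15 and 1.78 ± 0.14. Plau was not called in contralateral joints (0.43 ± 0.15 and 0.40 ± 0.14, both with a fold under 1.5), and in injured joints it was higher in STR/ort by 1.11 ± 0.13 over MRL/MpJ (adjusted p = 1.49e-08) and 1.01 ± 0.12 over C57BL/6 (adjusted p = 1.05e-07). Serpinf1 was higher in STR/ort contralateral joints by 1.48 ± 0.15 and 1.08 ± 0.13 and in injured joints by 1.54 ± 0.13 and 1.24 ± 0.13 over MRL/MpJ and C57BL/6, with groups that did not overlap. Beside these results, all 6 fibroblast markers were called higher in STR/ort contralateral joints than in each of the other strains, with median log2 differences of 1.81 over MRL/MpJ and 1.77 over C57BL/6. All 6 osteoblast markers were also called higher in both comparisons, with summed levels of 2792 to 4049 CPM in STR/ort, 1354 to 1770 CPM in MRL/MpJ and 1347 to 1926 CPM in C57BL/6. Of the 5 chondrocyte markers in the table, 4 and 5 were called higher, with sums of 4430 to 5798, 1390 to 2412 and 1016 to 2880 CPM. The part of these markers in the results was not tested. With the muscle markers as covariate the 12 contralateral differences at 1-week were called again, with values from 0.75 (Thbd over C57BL/6) to 1.98 (Plat over MRL/MpJ). The muscle sums of STR/ort (26037 to 51901 CPM) and MRL/MpJ (60670 to 88473 CPM) did not overlap there. For these strains muscle and strain therefore cannot be told apart in that fit.

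At 1-day no member was called between STR/ort and C57BL/6 in contralateral joints (10.5% of all genes were) or in injured joints (12.4%). F13a1 was at 395 to 423 CPM in STR/ort and 275 to 343 CPM in C57BL/6 contralateral joints, without overlap (0.41 ± 0.08, adjusted p = 0.000108, fold under 1.5). Thbd likewise did not overlap there, with 42.2 to 48.7 against 35.5 to 40.3 CPM (0.27 ± 0.10, adjusted p = 0.0458, fold under 1.5). Against MRL/MpJ, STR/ort was higher in 5 members in contralateral joints (22.6% of all genes, 13.1% as higher) and in 5 in injured joints (20.3% and 10.2%). C57BL/6 was higher than MRL/MpJ in 4 members in contralateral joints (Serpine2, Plat, F3 and Serpinf1, 14.8% of all genes) and in 2 in injured joints (Plat and Serpinf1, 16.3%). The contralateral differences of Serpinf1 from MRL/MpJ were 1.28 ± 0.09 in STR/ort and 1.14 ± 0.09 in C57BL/6, with 149 to 172 CPM in MRL/MpJ, 293 to 444 in C57BL/6 and 344 to 433 in STR/ort. The fibroblast marker sums in these joints were 1302 to 1462 CPM in MRL/MpJ, 2105 to 2755 CPM in C57BL/6 and 3206 to 4681 CPM in STR/ort. In the same order, osteoblast sums were 1368.5 to 1804, 2374 to 2851 and 2245 to 3601 CPM, and macrophage sums 342 to 421, 575 to 642 and 532 to 636 CPM. Chondrocyte sums were 976 to 2189, 2894 to 3846 and 2909 to 6296 CPM. Erythroid sums, at 3765 to 4490, 2295 to 3519 and 1498 to 2384 CPM, were highest in MRL/MpJ. The part of these markers in the result was not tested. Serpine2 fell below the fold threshold with 1 and 2 RUVg factors and with the muscle markers as covariate, in STR/ort minus MRL/MpJ injured joints (0.47, 0.47 and 0.56) and in C57BL/6 minus MRL/MpJ contralateral joints (0.53, 0.53 and 0.58). F3 in STR/ort minus MRL/MpJ injured joints was 0.62, and was not called with 1 RUVg factor (0.77, adjusted p = 0.0578), without STR/ort replicate 3 (0.57) or without STR/ort replicate 5 (0.56). F3 in C57BL/6 minus MRL/MpJ contralateral joints was 0.63 ± 0.17 and fell below the fold threshold without any 1 of 4 libraries (C57BL/6 contralateral replicates 1, 2 and 5, and MRL/MpJ contralateral replicate 5), to between 0.50 and 0.58. With 2 RUVg factors it was also below that threshold (0.53, adjusted p = 0.0441).

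At 2-weeks, in the other batch, Thbd, F13a1, Plat and Serpinf1 were higher in STR/ort than in MRL/MpJ in contralateral joints (4 of 8, 13.8% of all genes). Of these, Plat (0.66 ± 0.16) was not called with 2 RUVg factors (0.42, adjusted p = 0.189) or without replicate 4 of the STR/ort contralateral joints (0.56). The fibroblast marker sums did not overlap between these strains, at 1294 to 1855 against 897 to 945 CPM in contralateral joints and 2238 to 3098 against 1072 to 1803 CPM in injured joints. Nor did the osteoblast sums (984 to 1353 against 727 to 853 CPM, and 1078 to 1394 against 483 to 885 CPM) or the chondrocyte sums (2111 to 3163 against 1220 to 1789 CPM, and 3675 to 5392 against 1219 to 2224 CPM), in contralateral and injured joints. The endothelial sums did not overlap in contralateral joints (344 to 365 against 313 to 338 CPM), and the part of these markers in the results was not tested. In injured joints F3 was called as well (5 of 8, 18.9%). STR/ort and C57BL/6 differed in 0 members in contralateral joints (9.78%) and in Plat and F13a1 in injured joints (2 of 8, 10.4%), with log2 differences of 0.87 ± 0.14 (adjusted p = 2.18e-05) and 0.64 ± 0.11 (adjusted p = 2.36e-05). The fibroblast sums of these injured joints did not overlap, at 2238 to 3098 CPM in STR/ort and 1569 to 2190 CPM in C57BL/6, and their part in the result was not tested. F13a1 was at 401, 423, 426, 466 and 508 CPM in injured STR/ort joints, at 251, 259, 270, 305 and 343 CPM in injured C57BL/6 joints and at 204 to 278 CPM in injured MRL/MpJ joints. The STR/ort group lay above the others without overlap. C57BL/6 was above MRL/MpJ in Serpinf1 in contralateral joints (0.66 ± 0.10, 1 of 8, 9.83% of all genes) and in injured joints (0.73 ± 0.09, 1 of 8, 11.5%). The osteoblast sums of C57BL/6 and MRL/MpJ did not overlap, at 925 to 1055 against 727 to 853 CPM in contralateral joints and 938 to 1352 against 483 to 885 CPM in injured joints. In contralateral joints the chondrocyte sums (2169 to 2636 against 1220 to 1789 CPM) and endothelial sums (351 to 401 against 313 to 338 CPM) did not overlap either, and the part of these markers in the result was not tested. Thbd in STR/ort was at 61.1 to 70.2 CPM in contralateral and 62.2 to 73.1 CPM in injured joints, against 39.3 to 43.2 and 40.8 to 50.9 CPM in MRL/MpJ. Its injured difference of 0.61 ± 0.06 was 0.58, and not called, without replicate 1 or replicate 3 of the MRL/MpJ injured joints, or with genes filtered by filterByExpr.

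Some members also changed with time in the contralateral joint, with calls upwards in STR/ort and downwards in C57BL/6. In STR/ort 4 of 8 members were higher at 1-week than at 0-day, where 13.6% of all genes were called (5.37% as higher). In C57BL/6 3 of 8 were lower (5.72% of all genes were called in either direction), and in MRL/MpJ 0 of 8 and 0% of all genes were called. At 1-day no member was called in any strain (0.0924% of all genes in MRL/MpJ, 0.0693% in C57BL/6 and 9.92% in STR/ort). These comparisons share the 0-day libraries within a strain, and whether the change differed between strains was not tested.

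In STR/ort, Serpine2 rose from 277, 319, 330 and 331 CPM at 0-day to the 486 to 603 CPM given above, by a log2 fold change of 0.77 ± 0.09 (1.71-fold, adjusted p = 1.31e-09). Plat rose by 1.10 ± 0.19 (2.14-fold, adjusted p = 4.29e-06) and F13a1 by 0.69 ± 0.09 (1.61-fold, adjusted p = 4.15e-08), from 306, 310, 349 and 351 CPM. Serpinf1 rose by 0.61 ± 0.12 (1.53-fold, adjusted p = 5.78e-05), and was 0.56 without replicate 4 of 0-day, 0.49 without replicate 1 and 0.58 without replicate 4 of the contralateral joints. Every contralateral joint was above every 0-day joint for each of these genes, and the share of all genes without overlap is not given here. Over the same comparison all 6 muscle markers were called lower and all 6 fibroblast markers higher, with median log2 fold changes of -1.23 and 0.97, and 5 of 7 macrophage markers were called higher. The osteoblast marker sum was at 1986 to 2760 CPM at 0-day and 2792 to 4049 CPM in these contralateral joints, without overlap, with 1 of 6 markers called higher. The part of these markers in the changes was not tested. The muscle sums did not overlap between these groups (72782 to 80586 CPM at 0-day, 26037 to 51901 CPM at 1-week). In the fit that follows, muscle and time therefore cannot be told apart. With the muscle markers as covariate, Plat (1.20) and F13a1 (0.67) were called, and Serpine2 (0.55) and Serpinf1 (0.52) were under the fold threshold. With 1 and with 2 RUVg factors Serpine2 (0.56 and 0.56) and Serpinf1 (0.58 and 0.58) were under it too.

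In C57BL/6, Serpinf1 fell by 1.06 on the log2 scale (SE 0.12, adjusted p = 3e-09), from 377 to 475 CPM at 0-day to 178, 190, 193, 210 and 235 CPM. Plat fell by 0.62 (SE 0.19, adjusted p = 0.0187) and F3 by 0.59 (SE 0.19, adjusted p = 0.0309), without overlap between the groups. Both were near the thresholds: Plat was -0.48 without replicate 4 of 0-day, -0.58 without replicate 1 of 0-day and -0.54 without replicate 4 of the contralateral joints. F3 was no longer called in 24 of the fits that left out 1 library, with -0.49 (adjusted p = 0.131) without replicate 2 of 0-day as the smallest, nor with DESeq2 (-0.57) or RLE size factors (-0.57). Most of the 24 fits left out a library outside the comparison, and F3 was then near -0.577, just under the fold threshold. All 6 fibroblast markers were called lower in this comparison, with a median of -0.88. All 6 osteoblast markers (2280 to 3194 CPM at 0-day, 1347 to 1926 CPM after) and the 5 chondrocyte markers in the table were called lower as well, and the part of these markers in the result was not tested.

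**Figure D4:**
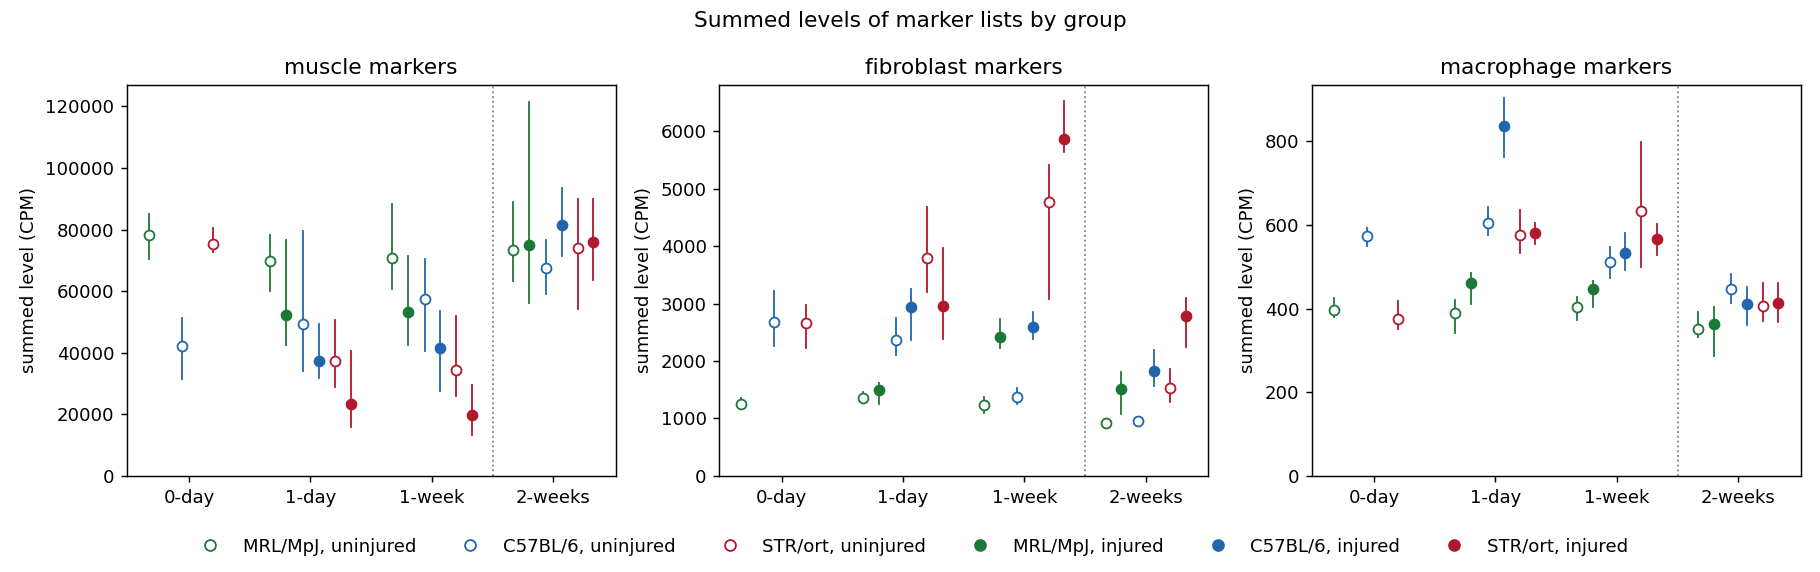
Summed level in CPM (y axes, linear from 0) of 6 muscle, 6 fibroblast and 7 macrophage markers by time (x axes), with points for group means and lines from the lowest to the highest library, open for uninjured and filled for injured joints. STR/ort at 1-week had the lowest muscle and the highest fibroblast sums, at 13421 to 29528 and 5646 to 6525 CPM in injured joints.

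Ordered by mean level over all 21 groups, 5 of the 8 genes were highest in a STR/ort group at 1-week, and 7 were lowest in a MRL/MpJ group, an order that runs across both batches. The fold from the highest to the lowest group mean was 10.3 for Plat, 4.89 for Serpinf1 and 3.32 for Plau, and 2.25 to 2.51 for the other 5. The order was mostly gradual: of 20 neighbouring pairs, the gap between means exceeded the sum of the 2 standard deviations in 2 for Plau, in 1 each for Plat, Serpinf1, Serpine2 and Thbd, and in 0 for Plaur, F3 and F13a1. For Plat and Serpinf1 that gap lay between the injured and the contralateral joints of STR/ort at 1-week (67.3 against 32.4 CPM and 621 against 420 CPM). For Serpine2 it lay between injured STR/ort and contralateral C57BL/6 joints at 1-day (434 against 384 CPM). For Thbd it lay between contralateral STR/ort and injured C57BL/6 joints at 2-weeks (66.8 against 56.4 CPM). For Plau the upper gap lay between injured C57BL/6 and injured MRL/MpJ joints at 1-day (59.9 against 41.1 CPM).

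Among other genes of these pathways, 17 of 22 listed genes of the plasminogen system, 25 of 31 of coagulation and 13 of 15 further serpins were in the table. Of the 17 plasminogen system genes, injury raised 2 in MRL/MpJ, 3 in C57BL/6 and 1 in STR/ort at 1-day (2.02%, 5.6% and 4.31% of all genes were called), 4, 3 and 5 at 1-week (3.13%, 5.82% and 9.21%), and 1, 2 and 3 at 2-weeks (1.16%, 2.95% and 4.66%). Called lower was 1, Serpinb2 in STR/ort at 1-week (-0.59 ± 0.17, adjusted p = 0.0102), which encodes plasminogen activator inhibitor 2. The median log2 fold change of the list was between 0.03 and 0.35, beside -0.03 to 0.01 over all genes. Mrc2, which encodes the uPAR-associated collagen receptor, was higher in all 3 strains at 1-week (0.73 ± 0.17, 1.01 ± 0.15 and 0.70 ± 0.16).

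Of the 25 coagulation genes, none was called in all 3 strains at one time point. Injury raised 0, 3 and 1 of them in MRL/MpJ, C57BL/6 and STR/ort at 1-day, 1, 5 and 4 at 1-week, and 1, 2 and 3 at 2-weeks, with 1 lower, beside the same shares of all genes (2.02%, 5.6% and 4.31%, then 3.13%, 5.82% and 9.21%, then 1.16%, 2.95% and 4.66%). The smallest adjusted p belonged to F2r, the thrombin receptor PAR1, in STR/ort at 1-week (0.91 ± 0.08, adjusted p = 5.05e-09), and the gene called lower was F5, encoding factor V, in the same comparison (-0.64 ± 0.11, adjusted p = 9.24e-05). Of the 13 serpins, 1, 3 and 1 rose at 1-day, 2, 3 and 2 at 1-week, and 1, 2 and 2 at 2-weeks, and 0 fell. Serpina3n, an acute-phase serpin, rose in all 3 strains at 1-day, by 1.57 ± 0.24, 2.16 ± 0.23 and 0.92 ± 0.22.

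The patterns of the members over the 15 group means of the first batch were compared with those of all other genes, as a description only, over groups that share strains and tissue make-up. The 3 genes with the highest Pearson correlation of mean log2 CPM were Kctd17, Steap2 and Igfbp7 for Plat (r = 0.984 each), and Sparc, Cdh11 and Papss2 for Serpinf1 (0.985, 0.981 and 0.975). For Plau they were Lrrc59, Pcsk5 and Il33 (0.970, 0.957 and 0.957). Serpine2 was closest to Trpv4, Fam109a and Ibsp (0.966, 0.955 and 0.954), F3 to Col27a1, Btd and Plekhg2 (0.973, 0.972 and 0.969), and F13a1 to Cyp1b1, Ifitm2 and Gusb (0.978, 0.972 and 0.968). Thbd was closest to Txndc11, Commd7 and Ccl9 (0.950, 0.947 and 0.940). Plaur had the weakest likeness, with 0.875, 0.818 and 0.812 for Nle1, Dnase1l2 and Dph6.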

How the data were processed

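Total RNA of whole knee joints was sequenced. Per the labels and the methods of the study, the authors used TopHat2 2.0.11 for alignment (build mm10) and featureCounts for counting over RefSeq genes, and the values they deposited are raw, whole-number counts per gene, after their own filter on low counts. Of 17313 listed genes, 3 repeated rows were dropped; asking for 2 or more counts in 5 or more libraries removed 0. Levels are library-size scaled counts (CPM) with TMM scaling over the 100 libraries. Where a few abundant muscle transcripts take many reads, fewer are left for other genes, and this effect was not measured here.

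Tests were made with edgeR 4.0.16 in R 4.3.3 (TMM, trended dispersion, quasi-likelihood F test), with 1 mean per group, separately for each time point, and over the 70 libraries of the first batch for comparisons over time. P-values were adjusted by Benjamini-Hochberg over all 17310 genes, and genes were called at an adjusted p below 0.05 and a fold above 1.5 (0.58 on the log2 scale). Errors of log2 fold changes are standard errors derived from the F statistic. No exact permutation test was used. The scripts were tested on simulated data. Replicates are the libraries that the labels number within a group. Outside 2-weeks the labels tie no library to an animal, so p-values measure the spread between these libraries.

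The 8 members and the gene and marker lists were chosen with earlier results of these data known. Other genes are named only if called in all 3 strains at 1 time point in the same direction, or where they had the smallest adjusted p among the called genes of a list in a direction, or as 1 of the 3 genes most correlated with a member over 15 group means. Some results that this rule covers are not reported here.

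Alternatives were RLE size factors, DESeq2 1.42.0, edgeR's filterByExpr, no filter, 1 or 2 RUVg factors (the study used RUVSeq; here computed from its formula on 25 housekeeping genes), a replicate block, leaving out each library (fits over the first batch then reused the trended dispersion of the full fit), and the summed muscle markers as covariate, which was chosen after seeing the data. At 2-weeks the labels name the same animal for both joints of all 15 pairs. Outside 2-weeks libraries share only a number. At 1-week, STR/ort joints with equal numbers had correlated deviations from their group means (0.102 to 0.231), as had those of MRL/MpJ (0.0454 to 0.0973). Between the named pairs of MRL/MpJ at 2-weeks the correlation was -0.161 to 0.0755, so these correlations cannot show which libraries are pairs. Promoters are from RefSeq (GRCm38.p6) and exon lengths from GENCODE M21.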

Additional observations from a re-analysis of the deposited data

Results flagged for a closer look

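Each of the 8 genes was examined in each of the 21 groups, so the 168 sets of 4 or 5 libraries share libraries. In 11 of these sets 1 library stood apart from the others by Dixon's criterion, where chance gives 8.4. In MRL/MpJ these were Plau in contralateral replicate 2 at 1-day (18.0 CPM, the others 22.5 to 22.8), Serpinf1 in the same library (149 CPM, the others 167 to 172), F3 in 0-day replicate 2 (4.19 CPM, the others 5.79 to 5.86), F3 in injured replicate 5 at 2-weeks (3.25 CPM, the others 5.40 to 6.19), Serpinf1 in injured replicate 3 at 2-weeks (128 CPM, the others 182 to 189) and Thbd in contralateral replicate 3 at 1-week (25.2 CPM, the others 31.3 to 32.2). In C57BL/6 they were Plaur in injured replicate 5 at 1-week (23.3 CPM, the others 19.7 to 20.6), Thbd in injured replicate 4 at 1-week (34.8 CPM, the others 38.3 to 39.7) and F13a1 in contralateral replicate 1 at 2-weeks (344 CPM, the others 248.7 to 275). In STR/ort they were Plau in 0-day replicate 1 (33.9 CPM, the others 23.8 to 24.9) and Serpinf1 in 0-day replicate 4 (232 CPM, the others 284 to 287). Without that last library, Serpinf1 in STR/ort minus C57BL/6 at 0-day was -0.56 and its contralateral change at 1-week in STR/ort was 0.56, both under the fold threshold. Without MRL/MpJ injured replicate 5 at 2-weeks, F3 in STR/ort minus MRL/MpJ was 0.54, also under it.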

How the results depend on the processing

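Of the 81 called results for single genes, RLE size factors, DESeq2 and filterByExpr each kept 80 past the thresholds, no filter 81, 1 RUVg factor 72, 2 RUVg factors 65 and the muscle covariate 72, and none of these changed sign. Of 2682 values of these 81 results from fits that left out 1 library, 2631 stayed past the thresholds. Each such fit gave values for several results. The number of calls over the 3 strain comparisons at 0-day fell from 5 to 1 with 2 RUVg factors and to 3 with the muscle covariate. Interactions rose from 0 to 2 with DESeq2 and to 3 with the replicate block, where Plat was -0.76 for STR/ort minus C57BL/6 at 1-day and Plau was 0.66 and 0.72 for STR/ort minus C57BL/6 and minus MRL/MpJ at 1-week; the cause was not tested. In MRL/MpJ at 1-week, 4 contralateral libraries stand against 5 injured ones, so equal numbers there need not mark 1 animal. The block ended none of the 12 injury calls and added Serpinf1 in STR/ort at 1-week. Without 1 library the counts ran from 4 to 6 (0-day), 4 to 5, 4 to 5 and 2 to 4 (injury, by time point in order), 27 to 31 and 25 to 28 (strains in injured and contralateral joints), 0 to 1 (interactions), 5 to 7 (contralateral against 0-day) and 3 to 3 (injured, 1-week against 1-day). Differences that were not called changed sign for Serpine2 at 0-day, in STR/ort minus C57BL/6 to 0.16 with 2 RUVg factors and 0.10 with the muscle covariate, and in C57BL/6 minus MRL/MpJ to -0.18 and -0.025. With 2 RUVg factors they did so in C57BL/6 minus MRL/MpJ at 0-day for F3 (-0.18) and Thbd (-0.044), and for Plaur in STR/ort minus C57BL/6 injured joints at 1-week the difference became -0.24 and -0.23 with 1 and 2 RUVg factors and -0.14 with the muscle covariate. F3 rests on 27 to 140 counts per library. No setting moved the median log2 fold change of all genes by more than 0.1.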
